A study of Mus musculus with 12 samples.

Results

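The E2F family comprised 10 genes in these data, namely the 8 E2f genes (*E2f1* to *E2f8*) and the 2 genes of their DP partners, *Tfdp1* and *Tfdp2*. They were taken as the genes of the count table whose mouse Ensembl identifiers carry these symbols, 10 of the 25700 genes listed, and all 10 had enough counts to be among the 18597 genes tested. Their transcripts were measured in Schwann cells (SCs), the glia of peripheral nerve, sorted from the sciatic nerve at postnatal day 5 (P5). All mice carried P0Cre, a Cre transgene active in the SC lineage, a Cre-dependent eYFP reporter (ReYFP) and the βAct-DsRed reporter, so that eYFP marked these cells. Each of 3 FACS gates gave 4 libraries. The labels number them by subject from 1 to 4 in each gate, and a subject is taken here as 1 mouse. The allSC gate took all eYFP-positive cells, the mSC gate those of high side scatter, enriched for myelinating SCs, and the nmSC gate those of low side scatter, enriched for not-myelinating SCs. The gates enrich for these cells and do not purify them, the nerves were digested with enzymes before sorting, and the mice were of both sexes, which the labels do not assign to libraries.

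E2F proteins bind DNA at the promoters of genes for DNA replication and cell division. E2F1, E2F2 and E2F3 are the activators, held in check by the retinoblastoma protein until cyclin-dependent kinases release them. E2F4 and E2F5 act mainly as repressors in resting cells together with the pocket proteins p107 and p130, and E2F6 represses through Polycomb proteins without pocket proteins. All of these need a DP partner to bind DNA. E2F7 and E2F8, the atypical members, bind DNA without DP, are themselves made in S phase as targets of the activators, and switch E2F targets off again. Schwann cells divide around birth and leave the cell cycle as they begin to myelinate.

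Libraries held between 8180927 and 16918122 counted reads. Expression is given as CPM, the count scaled to the library total after TMM normalization, and 3 counts, the least taken as detectable, were worth 0.198 to 0.375 CPM. *Sox10*, a defining Schwann cell factor, was at a mean of 267 CPM in allSC, 267 CPM in mSC and 266 CPM in nmSC. The summed CPM of 2 myelination markers, *Mbp* and *Ncmap*, was 50983 to 59849 in mSC and 5364 to 6600 in nmSC, and that of the proliferation markers *Mki67* and *Top2a* was 35.5 to 57.9 in mSC, 283 to 308 in allSC and 474 to 609 in nmSC. The 10 markers of fibroblast-like and perineurial, endothelial, immune and vascular smooth muscle cells together reached 16.7 to 19.0 CPM in mSC. They reached 24.3 to 29.0 CPM in allSC and 22.2 to 35.2 in nmSC. Of the endothelial markers, *Cd300lg* had 0, 3, 0 and 2 counts in mSC libraries 1 to 4, *Cldn5* 7, 27, 4 and 4, and *Pecam1* 22, 15, 14 and 9. The mean of *Cldn5* was higher in mSC (0.909 CPM) than in nmSC (0.358 CPM), and those of *Pecam1* and *Cd300lg* were lower there. In bulk libraries, fewer cells of a type and less RNA per cell cannot be told apart.

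The sequences upstream of *E2f7* and *E2f8* are shown because these genes differed most between the gates. That of *E2f3* is shown because this activator, with the same kind of motifs at the start used, did not pass the test. RefSeq promoter windows (GRCm38.p6, 250 bases before to 50 after the start) matched 8 of the 10 genes, with 12 windows in all and none for *E2f4* and *E2f5*. Each was searched on both strands for the E2F letters TTTCCCGC, TTTCGCGC, TTTGCCGC and TTTGGCGC, for shorter forms, which are these letters without the first T and so lie within every longer form, and for the CHR element TTTGAA, through which MuvB complexes bind genes of late cell division. Among 32851 promoter windows of the same length, 2.26% held a longer form, 9.57% a shorter form and 17.9% the CHR letters. The 250 bases before each start follow, 5′ to 3′ on the strand of the gene, with matches on either strand in capitals (a match on the opposite strand reads as its reverse complement, as GCGGGAAA does for the first).
E2f7, chr10:110745189-110745438, plus strand: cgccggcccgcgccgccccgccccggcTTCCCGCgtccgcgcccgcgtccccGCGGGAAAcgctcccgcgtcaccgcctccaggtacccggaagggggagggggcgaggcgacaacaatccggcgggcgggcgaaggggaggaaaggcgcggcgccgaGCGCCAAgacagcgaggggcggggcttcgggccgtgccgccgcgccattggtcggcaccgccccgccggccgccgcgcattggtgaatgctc
E2f8, chr7:48881597-48881846, minus strand: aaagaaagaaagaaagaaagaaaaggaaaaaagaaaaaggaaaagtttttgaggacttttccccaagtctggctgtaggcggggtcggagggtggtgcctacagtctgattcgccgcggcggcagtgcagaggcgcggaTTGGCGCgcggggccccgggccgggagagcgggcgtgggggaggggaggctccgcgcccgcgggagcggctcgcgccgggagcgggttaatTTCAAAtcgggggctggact
E2f3, chr13:29986064-29986313, minus strand: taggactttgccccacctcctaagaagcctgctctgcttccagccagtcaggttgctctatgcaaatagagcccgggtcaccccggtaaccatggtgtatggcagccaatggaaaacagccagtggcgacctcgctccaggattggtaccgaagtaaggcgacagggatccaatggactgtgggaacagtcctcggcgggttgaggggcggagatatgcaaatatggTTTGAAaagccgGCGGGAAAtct

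The window of *E2f7* held 3 E2F matches, at -223, -198 and -92 bases from the start, of which that at -198 was of the longer form. That of *E2f8* held a shorter form at -111 and the CHR letters at -20. At the *E2f3* start shown, the CHR letters lay at -23, a longer form at -11 and a shorter form at +19, beyond the bases printed. The window at a second *E2f3* start held none of the letters searched. *E2f2* had a longer form at +40 of its first RefSeq start, within these 30 bases:
E2f2, chr4:136172294-136172323, plus strand: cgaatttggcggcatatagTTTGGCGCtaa

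*Tfdp1* held a longer form at -43 of one of its starts, on the opposite strand. A second start of *E2f2* had the CHR letters at -31. The windows of *E2f6*, *Tfdp2* and *E2f1*, whose RefSeq start lies downstream of the GENCODE one, held none of the letters searched, which says only that these letters are not in these windows. A match is a string of letters, and binding was not measured.

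Between mSC and nmSC, 5 of the 10 genes passed the test (edgeR's quasi-likelihood test, Benjamini-Hochberg adjusted p under 0.05 over all tested genes). *E2f1*, *E2f2*, *E2f7* and *E2f8* were lower in mSC, and *Tfdp2* was higher there with TMM. *E2f7* and *E2f8* changed most, by 6.80-fold and 12-fold. Of all tested genes, 40.5% passed the same test, 20.2% as lower and 20.4% as higher in mSC, so that 5 of 10 was close to the share among all genes. Ranges of the 4 libraries did not overlap for 4 of the 10 genes against 34.2% of all genes. The median log2 fold change was -0.36 over the 10 genes and -0.16 over all tested genes.

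**Figure D1:**
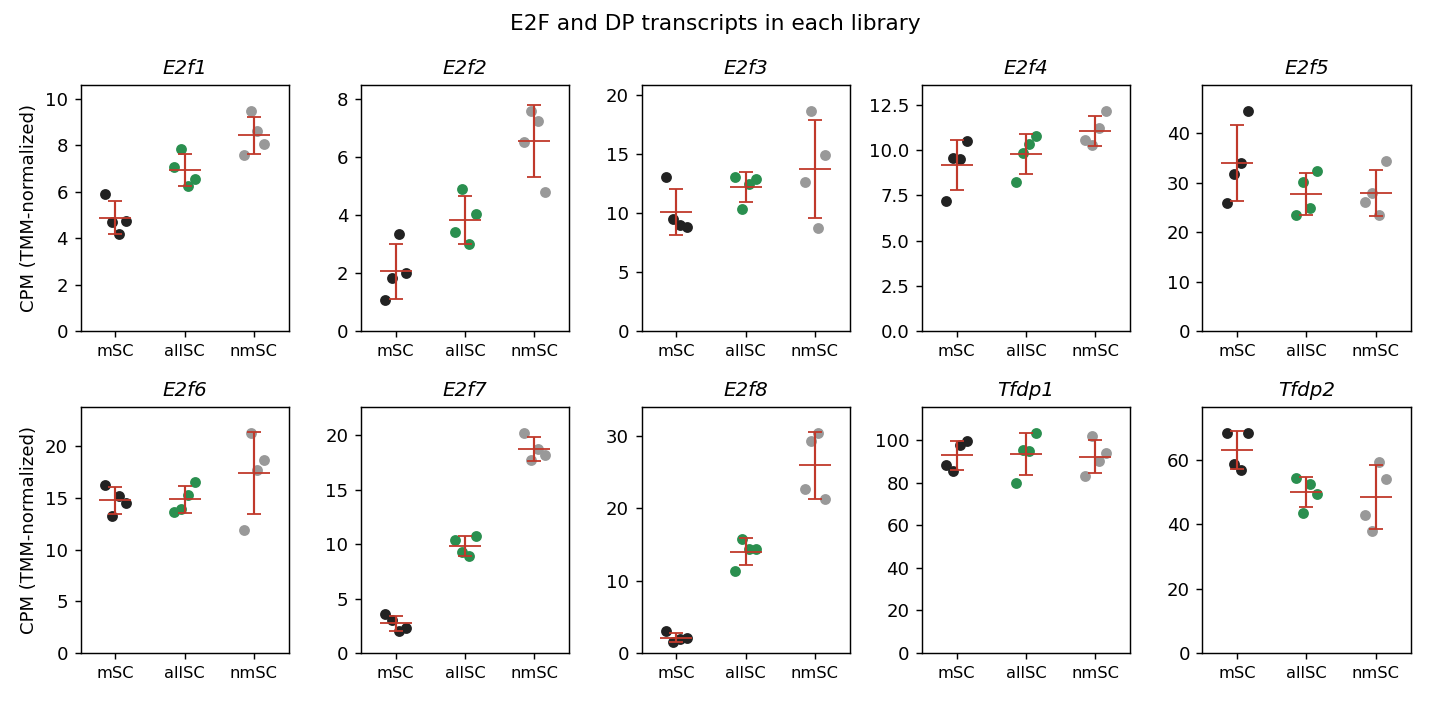
TMM-normalized CPM (vertical axes, from 0) of each E2F and DP gene in the mSC, allSC and nmSC gates. Points are the 4 libraries of a gate and red marks their mean ± SD. For *E2f1*, *E2f2*, *E2f7* and *E2f8* every mSC point lies below every nmSC point, and *E2f8* runs from 1.48 to 3.06 in mSC and from 21.2 to 30.4 in nmSC.

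*E2f8*, an atypical repressor (ENSMUSG00000046179, GRCm38 chromosome 7, 48866429 to 48881596, minus strand), had 3.06, 1.48, 1.87 and 2.12 CPM in mSC libraries 1 to 4. In nmSC it had 22.7, 29.3, 30.4 and 21.2 CPM, and in allSC 11.3, 15.7, 14.4 and 14.4 CPM. The 3 gates did not overlap, with mSC lowest and nmSC highest in each of the 4 mice. The mSC level was 2.13 ± 0.672 CPM (SD, n = 4) against 25.9 ± 4.60 in nmSC, a log2 fold change of -3.58 (95% interval -4.05 to -3.12, edgeR adjusted p = 1.6e-10). The mSC values rested on 45, 17, 24 and 17 counts, and the nmSC values on 236, 344, 406 and 322. The exons of *E2f8* share 610 bases with those of Gm2788 on the opposite strand, and whether the counting used strand is not stated, so reads of that stretch may belong to either gene.

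*E2f7*, the other atypical repressor (ENSMUSG00000020185, chromosome 10, 110745439 to 110787384, plus strand), had 3.53, 3.04, 2.02 and 2.25 CPM in mSC. Its nmSC values were 20.2, 17.7, 18.8 and 18.2 CPM and its allSC values 10.3, 9.25, 8.86 and 10.8 CPM. Again the 3 gates did not overlap, and all 4 mice had less in mSC than in nmSC. The log2 fold change was -2.77 (95% interval -3.17 to -2.37, edgeR adjusted p = 6.74e-10), from 18.7 ± 1.07 CPM (SD, n = 4) in nmSC to 2.71 ± 0.702 in mSC. Its exons share 86 bases with an opposite-strand gene, 1700020G17Rik.

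Among the activators, *E2f2* (ENSMUSG00000018983, chromosome 4, 136172394 to 136196057, plus strand) differed most. It had 1.09, 1.83, 3.34 and 2.00 CPM in mSC, 3.42, 4.89, 3.01 and 4.03 in allSC, and 6.54, 7.58, 7.25 and 4.82 in nmSC. The mSC and nmSC libraries stood apart, while mSC library 3 and nmSC library 4 lay within the allSC values. The log2 fold change of mSC against nmSC was -1.66 (95% interval -2.29 to -1.04, edgeR adjusted p = 0.00017), or 3.17-fold lower.

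*E2f1* (ENSMUSG00000027490, chromosome 2, 154559407 to 154569892, minus strand), the activator best known for also driving cell death genes, had 5.91, 4.70, 4.20 and 4.75 CPM in mSC. It had 7.07, 7.84, 6.24 and 6.54 in allSC, and 7.60, 9.45, 8.60 and 8.05 in nmSC. Every mSC library lay below every nmSC library, and allSC reached into the nmSC range. The log2 fold change was -0.78 (95% interval -1.16 to -0.40, edgeR adjusted p = 0.00211), or 1.72-fold lower in mSC.

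*E2f3* (ENSMUSG00000016477, chromosome 13, 29906575 to 29986063, minus strand) had 13.0, 9.48, 9.01 and 8.87 CPM in mSC, 13.1, 10.4, 12.5 and 12.9 in allSC, and 12.7, 18.7, 8.75 and 15 in nmSC. The gates overlapped, with nmSC library 3 below all mSC libraries and mSC library 1 above nmSC libraries 1 and 3. Its log2 fold change of -0.44 (95% interval -0.87 to -0.0043) did not pass the adjusted test (edgeR adjusted p = 0.0977). It passed without mSC library 1 (edgeR adjusted p = 0.0345) or without nmSC library 3 (edgeR adjusted p = 0.0194).

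The repressors that need DP did not pass the test between mSC and nmSC. *E2f4* (ENSMUSG00000014859, chromosome 8, 105297663 to 105305370, plus strand), the main E2F of resting cells, had 7.20, 9.57, 9.48 and 10.5 CPM in mSC and 10.6, 10.3, 11.2 and 12.1 in nmSC. The mSC value was the lower one in 4 of 4 mice, but the ranges overlapped, and the interval of the log2 fold change ran from -0.63 to 0.072 about -0.28. *E2f5* (ENSMUSG00000027552, chromosome 3, 14578641 to 14606309, plus strand), the closest relative of *E2f4*, had 25.9, 31.7, 34.0 and 44.5 CPM in mSC and 26.1, 27.9, 23.5 and 34.4 in nmSC. Here mSC was the higher in 3 of 4 mice, with a log2 fold change of 0.28 (95% interval -0.083 to 0.64). *E2f6* (ENSMUSG00000057469, chromosome 12, 16810963 to 16839742, plus strand) had 16.3, 13.2, 15.2 and 14.5 CPM in mSC and 11.9, 21.3, 17.7 and 18.7 in nmSC. Its nmSC libraries spanned the mSC ones, and the interval of its log2 fold change of -0.24 ran from -0.59 to 0.12. The edgeR adjusted p was 0.188 for *E2f4*, 0.203 for *E2f5* and 0.267 for *E2f6*.

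*Tfdp1* (ENSMUSG00000038482, chromosome 8, 13338751 to 13378448, plus strand), whose protein pairs with E2F1 to E2F6, had 88.4, 85.5, 97.4 and 99.5 CPM in mSC and 83.1, 102, 89.9 and 93.7 in nmSC. The gates overlapped throughout, and the log2 fold change of 0.0090 had a 95% interval from -0.25 to 0.26 (edgeR adjusted p = 0.958). *Tfdp2* (ENSMUSG00000032411, chromosome 9, 96196275 to 96323646, plus strand), the second DP partner, had 68.4, 58.9, 57.0 and 68.3 CPM in mSC and 42.8, 37.8, 59.5 and 54.2 in nmSC. Its ranges overlapped through nmSC library 3, and mSC was the higher in 3 of 4 mice. The log2 fold change of 0.38 (95% interval 0.066 to 0.69) passed the test narrowly (edgeR adjusted p = 0.0497), did not pass when any 1 of the mSC or nmSC libraries other than nmSC 3 or nmSC 4 was left out (highest edgeR adjusted p = 0.17), and was -0.18 with library size alone.

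The scaling between libraries decides the sign of the small differences. TMM factors were 0.744 to 0.871 in mSC, 0.986 to 1.03 in allSC and 1.16 to 1.28 in nmSC. With totals alone the median of all tested genes between mSC and nmSC moved from -0.16 to -0.73, genes higher in mSC went from 50.3% to 12.2% of all calls, and 8 of the 10 genes passed, all as lower in mSC. Of all 18597 tested genes, 11864 then passed, 10421 of them as lower in mSC. A change of scaling moves every gene by about the same amount, so the distance of a gene from the median of all genes is nearly fixed by construction and says nothing of the sign of *Tfdp2* or *E2f5*. By this distance *E2f8* was at -3.42 with TMM and -3.40 with totals alone, *E2f7* at -2.60 and -2.59, *E2f2* at -1.5 and -1.5, and *E2f1* at -0.62 and -0.61. *Tfdp2* was at 0.54 and 0.55, *E2f5* at 0.44 and 0.43, and *Tfdp1* at 0.17 and 0.17.

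**Figure D2:**
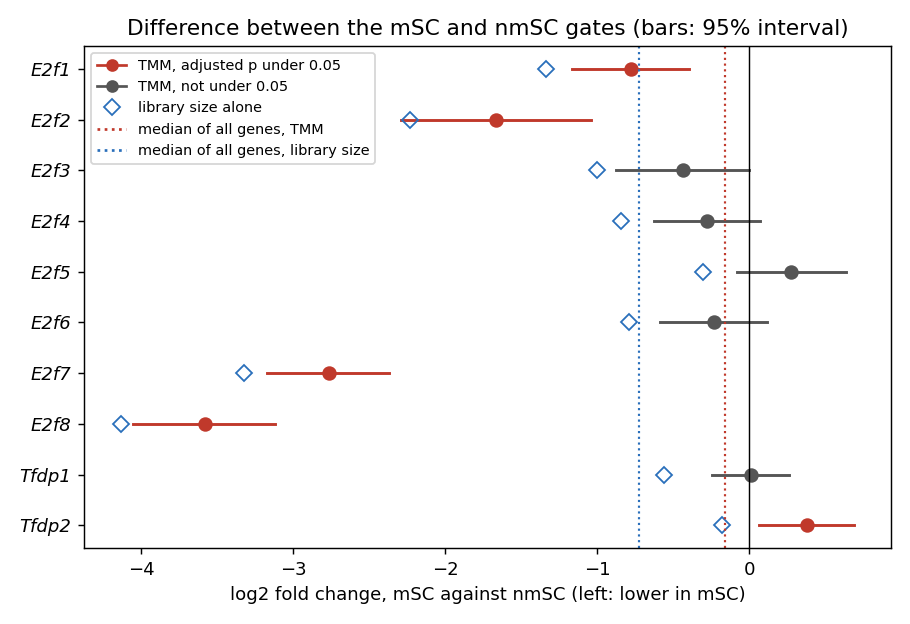
Log2 fold change of mSC against nmSC (horizontal axis) for each E2F and DP gene. Circles with 95% intervals are the TMM values, red where the adjusted p was under 0.05, diamonds are the values with library size alone, and dotted lines mark the median of all tested genes under each scaling (-0.16 and -0.73). The points of *E2f7* and *E2f8* lie far to the left under both scalings, whereas the diamond of *Tfdp2* (-0.18) lies on the other side of 0 from its circle (0.38).

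A ratio of 2 genes within a library needs no scaling between libraries. With TMM, however, *Tfdp1* hardly differed between mSC and nmSC (log2 fold change 0.0090). A ratio to it therefore largely repeats the TMM differences and is no separate check of them. The log2 ratio of counts to those of *Tfdp1*, a gene chosen for this after its values were seen, was -5.81 to -4.84 in mSC and -2.14 to -1.56 in nmSC for *E2f8*. For *E2f7* it was -5.56 to -4.63 in mSC and -2.52 to -2.04 in nmSC. The ranges also stood apart for *E2f2* (mSC -6.30 to -4.85, nmSC -4.27 to -3.62) and *E2f1* (mSC -4.52 to -3.89, nmSC -3.54 to -3.38), and overlapped for the other 5 genes, *Tfdp2* among them. Of all tested genes, 31.8% had ranges of this ratio that did not overlap.

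The allSC gate took eYFP-positive cells of either side scatter, so a level between the other gates can be expected for any gene that differs between them. On the way from the mSC mean to the nmSC mean it stood at 39.6% for *E2f2*, 44.3% for *E2f7*, 49.7% for *E2f8* and 57.6% for *E2f1*, and at 45.2% for *Mki67* and 53.7% for *Top2a*. *E2f3* (57.7%), *E2f4* (32.6%), *E2f6* (3.06%) and *Tfdp2* (89.9%) also lay between, whereas *E2f5* and *Tfdp1* did not. Against mSC, 3 of the 10 genes were higher in allSC, where 17.6% of all tested genes passed and 8.8% were higher. These were *E2f8*, with a log2 fold change of 2.69 (95% interval 2.23 to 3.16, edgeR adjusted p = 4.06e-08), *E2f7* with 1.83 (1.43 to 2.24, edgeR adjusted p = 9.48e-07) and *E2f2* with 0.90 (0.26 to 1.54, edgeR adjusted p = 0.0472). The call of *E2f2* was lost with the mouse as a block (0.94, edgeR adjusted p = 0.0508), and among the 8 fits with 1 library left out it held only without mSC library 3, where the log2 fold change was 1.23. *E2f1* had a log2 fold change of 0.50 (0.12 to 0.88, edgeR adjusted p = 0.0672), which passed without mSC library 1 (edgeR adjusted p = 0.0397).

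Against nmSC, 2 of the 10 genes, *E2f7* and *E2f8*, were lower in allSC, where 10.4% of all tested genes passed, 2.83% as lower and 7.54% as higher. For both, all allSC libraries lay under all nmSC libraries, which held for 7.36% of all tested genes. *E2f7* had a log2 fold change of -0.93 (95% interval -1.29 to -0.58, edgeR adjusted p = 0.00086) and *E2f8* one of -0.89 (-1.28 to -0.50, edgeR adjusted p = 0.00303). *E2f2* was at -0.76 (-1.35 to -0.18) and did not pass (edgeR adjusted p = 0.0964). Each gate enters 2 of the 3 comparisons, so that these values are not independent of one another.

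Levels of different genes were compared within a gate, as RPKM, the count per kilobase of exon (overlapping exons merged), scaled to the library total. *Tfdp1* was the highest in each gate, at 20.6 ± 1.18 in mSC, 25.7 ± 2.55 in allSC and 30.3 ± 2.93 RPKM in nmSC (SD, n = 4). *E2f5* came next in each over the union of exons, at 15.4 ± 2.46, 15.7 ± 2.26 and 18.9 ± 2.97 RPKM, with no overlap with its neighbours above or below. With the mean transcript as the length, *Tfdp2* stood above *E2f5* in each gate, at 25.1 against 15.6 in mSC, 24.6 against 15.8 in allSC and 28.4 against 19.1 RPKM in nmSC. Over the union of exons *E2f5* made up 63.1% of the summed RPKM of the 8 E2f genes in mSC, 49.9% in allSC and 42.7% in nmSC. With the mean transcript these shares were 44.6%, 31.0% and 24.5%, and with the longest transcript 55.9%, 42.3% and 35.2%.

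In nmSC the order went on with *E2f8* at 5.75, *E2f4* at 5.44, *Tfdp2* at 4.16, *E2f6* at 3.70, *E2f1* at 3.23, *E2f3* at 3.08, *E2f7* at 2.51 and *E2f2* at 1.63 RPKM. Here *E2f8* overlapped with *E2f4*, and neighbours from *Tfdp2* down to *E2f7* overlapped one with the next. In mSC the order after *E2f5* was *Tfdp2* at 3.67, *E2f4* at 3.04, *E2f6* at 2.14, *E2f3* at 1.53, *E2f1* at 1.27, *E2f2* at 0.343, *E2f8* at 0.322 and *E2f7* at 0.248 RPKM, of which *E2f6*, *E2f3* and *E2f1* overlapped one with the next, as did the last 3. Over the union of exons *E2f8* thus stood in place 3 of the 10 genes in nmSC and in place 9 in mSC.

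In allSC the order after *E2f5* was *E2f4* at 4.03, *Tfdp2* at 3.60, *E2f6* at 2.65, *E2f8* at 2.59, *E2f3* at 2.27, *E2f1* at 2.22, *E2f7* at 1.10 and *E2f2* at 0.795 RPKM. *E2f4* and *Tfdp2* overlapped, as did each neighbour from *E2f6* to *E2f1*, and *E2f7* with *E2f2*. With the mean or the longest transcript as the length, 12 and 14 of the 30 places in these orders were kept, *Tfdp2* being the gene with the largest gap between its union of exons (14029 bases) and its mean transcript (2053 bases).

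**Figure D3:**
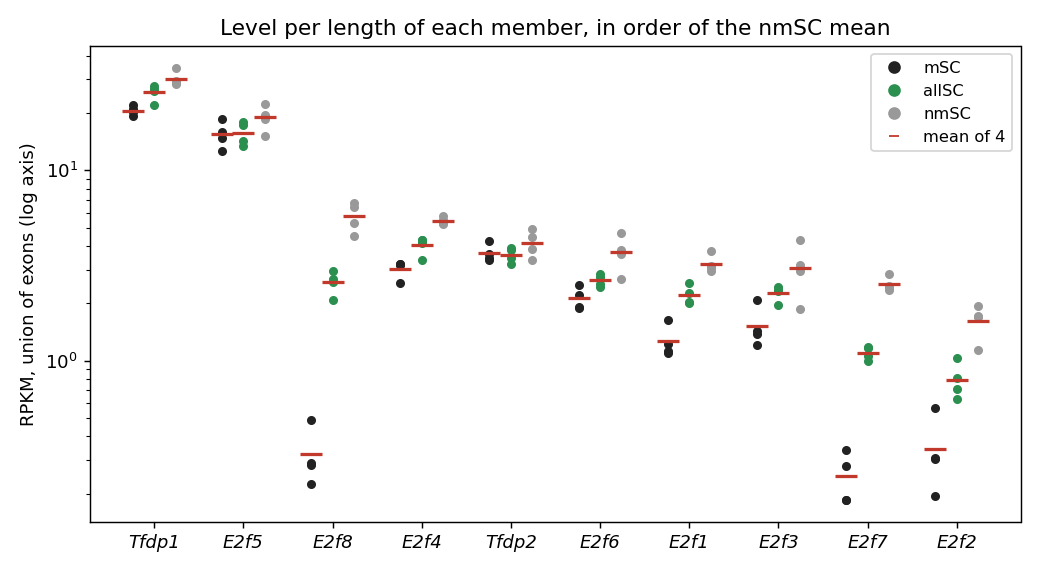
RPKM over the union of exons (vertical axis, log scale) of each gene in the mSC, allSC and nmSC libraries, ordered by the nmSC mean. Points are the 4 libraries of a gate and red bars their mean. *Tfdp1* and *E2f5* lie above the other genes in each gate, and *E2f8* stands in place 3 among the nmSC means and in place 9 among the mSC means. Totals here are not TMM-scaled, so heights are for comparison within a gate.

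The atypical repressors *E2f7* and *E2f8* together reached 8.26 ± 1.03 RPKM in nmSC beside 7.94 ± 1.43 for the activators *E2f1*, *E2f2* and *E2f3*. In mSC they reached 0.569 ± 0.174 beside 3.14 ± 0.545 (SD, n = 4). The ratio of atypical to activator RPKM, taken within each library, was 0.212, 0.169, 0.154 and 0.180 in mSC, 0.602, 0.723, 0.742 and 0.728 in allSC, and 1.05, 0.920, 1.3 and 0.941 in nmSC. The gates did not overlap in this ratio, which was lowest in mSC in all 4 mice. With the mean transcript as the length the mean ratio was 0.422 in mSC and 2.20 in nmSC, and with the longest transcript 0.253 and 1.48, so whether the ratio exceeded 1 in nmSC depended on the length. The order of the gates could hardly do so. *E2f7* and *E2f8* each differed more between gates than any activator, and the length of a gene is the same in every gate.

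**Figure D4:**
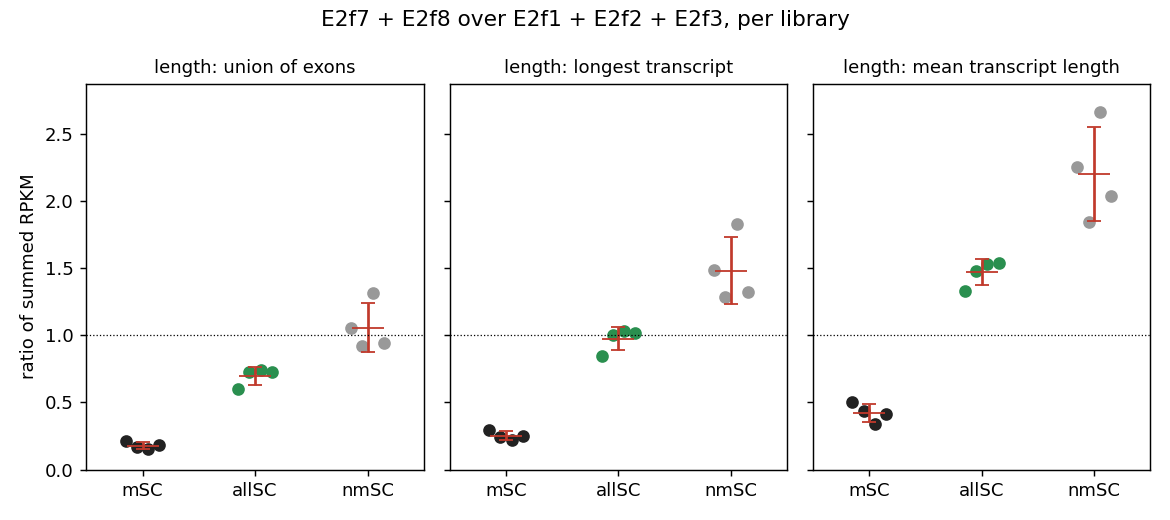
Ratio of the summed RPKM of *E2f7* and *E2f8* to that of *E2f1*, *E2f2* and *E2f3* (vertical axis) in each library of the 3 gates, with 3 definitions of gene length. Points are libraries, red marks mean ± SD, and the dotted line is a ratio of 1. In each panel the mSC libraries lie lowest and the nmSC libraries highest without overlap, from means of 0.179 to 1.06 over the union of exons.

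The partners and targets of the family were followed through lists of genes. Of 9 pocket protein and MuvB genes, 3 were lower and 1 was higher in mSC than in nmSC, with a median log2 fold change of -0.13 beside -0.16 for all tested genes. As 40.5% of all tested genes passed, the share of this list that passed was close to that of all genes. *Rbl1*, which encodes the pocket protein p107, fell by 2.10 on the log2 scale (edgeR adjusted p = 2.82e-08), *Mybl2*, the B-MYB factor that joins MuvB in dividing cells, fell by 2.57 (edgeR adjusted p = 9.58e-08), and the MuvB subunit *Lin9* by 1.39 (edgeR adjusted p = 1.06e-05). *Rb1*, the retinoblastoma gene, was higher by 0.61 with TMM (edgeR adjusted p = 0.0116), a call that was lost with library size alone. *Rbl2*, which encodes p130, had a log2 fold change of 0.18, *Lin37* 0.39, *Lin52* -0.13, *Lin54* -0.13 and *Rbbp4* 0.056, none of which passed. *Rbl2* passed without mSC library 4 and *Lin37* without mSC library 1. The means were 9.18 CPM in mSC and 39.9 in nmSC for *Rbl1*, 80.6 and 53.0 for *Rb1*, and 51.9 and 45.8 for *Rbl2*.

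Of 10 genes of the Polycomb complex that E2F6 joins, 2 were lower and 2 higher in mSC, with a median of 0.054, which is no more than the 20.2% lower and 20.4% higher among all tested genes. *L3mbtl2*, a reader of histones, was at -0.42 and *Wdr5*, a scaffold of histone methyltransferases, at -0.36, and neither passed with DESeq2's size factors. *Pcgf6*, a subunit that defines this complex, was at 0.64 and *Yaf2* at 0.48, and neither passed with library size alone, where *Yaf2* was at -0.10. All 4 calls were lost without single libraries, *Pcgf6* without nmSC 1 or mSC 4, *Yaf2* without nmSC 3, *L3mbtl2* without library 3 or 4 of either gate and *Wdr5* without library 2, 3 or 4 of either gate. *Mga* at -0.18, *Max* at 0.18, *Ring1* at 0.029, *Rnf2* at 0.078, *Rybp* at 0.12 and *Cbx3* at 0.0078 did not pass.

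Of 6 genes whose products inhibit or degrade E2F proteins, 5 were lower in mSC, beside 20.2% of all tested genes. *Ccnf*, which encodes the cyclin F that marks E2F proteins for degradation, fell by 3.50 on the log2 scale (edgeR adjusted p = 1.85e-09), *Cdc20*, an activator of the anaphase-promoting complex, by 3.16 (edgeR adjusted p = 1.06e-10), and *Ccna2*, the cyclin A that ends activator binding, by 2.96 (edgeR adjusted p = 6.39e-11). *Skp2*, a ubiquitin ligase subunit, fell by 1.63 (edgeR adjusted p = 1.54e-07). *Fzr1*, the other activator of the anaphase-promoting complex, fell by 0.36 (edgeR adjusted p = 0.0478), which was lost with DESeq2's size factors, with the mouse as a block (edgeR adjusted p = 0.0688) and in 6 of 8 fits without 1 library, all but those without nmSC 1 or mSC 4. *Cdk2*, the kinase partner of cyclin A and cyclin E, was at -0.31 (edgeR adjusted p = 0.0744) and passed without nmSC 1 or mSC 4.

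All 25 of the G1/S targets, genes of DNA replication and nucleotide supply, were lower in mSC, beside 20.2% of all tested genes. Their median was -1.80, with values from -3.67 to -0.41. The largest changes were those of *Uhrf1*, which keeps DNA methylation through replication (-3.67, edgeR adjusted p = 5.32e-11), *Rrm2*, a subunit of ribonucleotide reductase (-3.15, edgeR adjusted p = 4.15e-12), and *Tk1*, thymidine kinase (-2.96, edgeR adjusted p = 7.98e-09). Direction held under each scaling, and 23 passed with DESeq2's size factors, without *Pcna* and *Orc1*. *Pcna* was at -0.41 (edgeR adjusted p = 0.0348) and lost its call without library 1 or 2 of either gate or mSC 3. *Orc1* was at -0.66 (edgeR adjusted p = 0.0481) and lost its call without nmSC 1 or 4 or mSC 2, 3 or 4, and with the mouse as a block, where 24 of the 25 passed.

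All 11 of the G2/M genes, which DREAM complexes hold down in resting cells, were lower in mSC, beside 20.2% of all tested genes. Their median was -3.34, with values from -3.79 to -2.18, and the count of 11 held under each scaling. *Foxm1*, a transcription factor of late cell division, fell by 3.79 (edgeR adjusted p = 7.03e-10), *Aurkb*, a mitotic kinase, by 3.60 (edgeR adjusted p = 2.81e-11) and *Ccnb2*, a mitotic cyclin, by 3.59 (edgeR adjusted p = 6.09e-10). The log2 fold changes of *E2f7* (-2.77), *E2f8* (-3.58), *E2f1* (-0.78) and *E2f2* (-1.66) fell within the range of these 36 targets, -3.79 to -0.41. That of *E2f3* (-0.44), which did not pass, did so too, so this wide range does not set the called genes apart. Against allSC, 23 of the 25 G1/S and all 11 G2/M genes were lower in mSC, and 12 and 9 of them were lower in allSC than in nmSC. Among all tested genes these shares were 8.8% and 2.83%.

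Of 5 cell death genes that E2F1 can drive, 4 were tested, 2 of them lower and 1 higher in mSC, beside 20.2% lower and 20.4% higher among all tested genes. *Bcl2l11*, which encodes BIM, fell by 1.05 (edgeR adjusted p = 4.51e-06) and *Apaf1*, the core of the apoptosome, fell by 0.77 (edgeR adjusted p = 0.00326). *Bbc3*, which encodes PUMA, was higher by 1.30 (edgeR adjusted p = 0.00795) at 4.09 CPM in mSC and 1.63 in nmSC, and did not pass with library size alone. *Trp73* was at -0.86, on 12, 0, 5 and 3 counts in mSC libraries 1 to 4, and did not pass. *Cdkn2a*, at a mean of 0.0435 CPM in mSC and 0.0426 in nmSC, was below the 3-count level and not tested.

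The cofactors with which E2F4 and E2F5 act in multiciliated cells, *Gmnc*, *Mcidas* and *Ccno*, lay at means of 0.474 to 0.552 CPM in mSC and 0.621 to 2.22 in nmSC. Of these 3, *Ccno* was lower in mSC (-1.90, edgeR adjusted p = 0.00448), beside 20.2% of all tested genes, and *Gmnc* at -0.38 and *Mcidas* at -0.43 did not pass. All 3 were near the 3-count level in mSC. Libraries 1 to 4 held 17, 8, 3 and 1 counts of *Ccno*, 3, 3, 12 and 4 of *Gmnc*, and 15, 3, 0 and 7 of *Mcidas*.

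**Figure D5:**
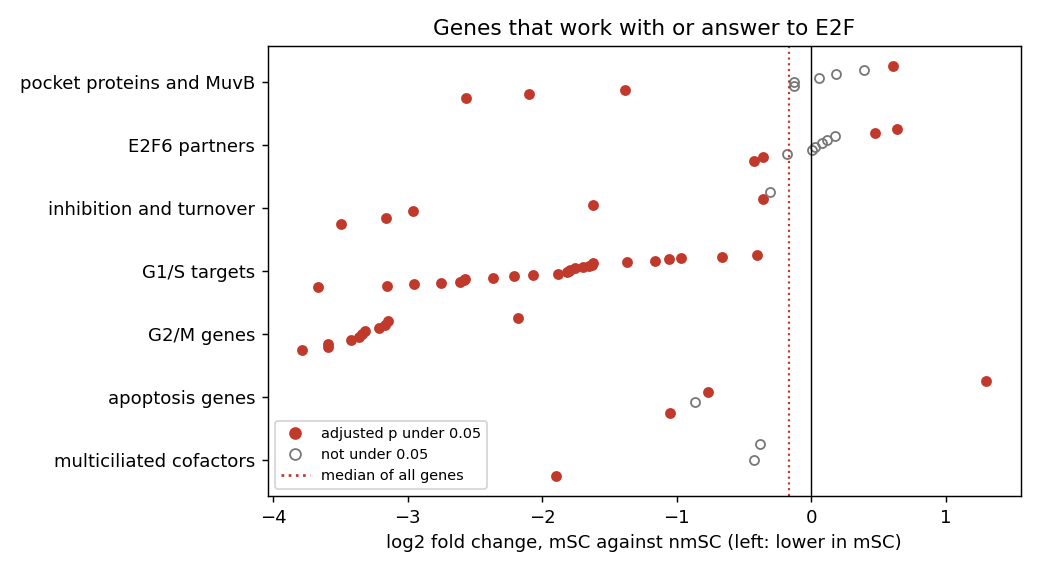
Log2 fold change of mSC against nmSC (horizontal axis, TMM) for each tested gene of 7 lists, one line of points per list. Filled points had an adjusted p under 0.05, and the dotted line is the median of all tested genes (-0.16). All G1/S targets and G2/M genes lie left of 0, under library size alone as well, while the E2F6 partners lie on both sides of it with TMM.

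*Mki67* and *Top2a* moved with these genes. *Mki67* was 11.5-fold lower in mSC than in nmSC and *Top2a* 11.5-fold lower, in the same libraries in which *E2f8* was 12-fold and *E2f7* 6.80-fold lower. How far a different share of dividing cells in the gates makes up these differences was not tested.

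For each of the 5 genes that passed between mSC and nmSC, the 3 most similar genes were found by the root mean square distance between log2(CPM + 1) profiles, each centred on its mean over the 12 libraries. For *E2f8* these were *Dhrs2* at a distance of 0.165, *Rrm2* at 0.172 and *Cdca5* at 0.186. For *E2f7* they were *Tpm2* at 0.165, *Slfn9* at 0.166 and *Clspn* at 0.177. Those nearest to *E2f2* were *Helz2*, *Glipr2* and *Fxyd5*, at 0.2 to 0.213. *E2f1* was nearest to *Creb3l3*, *Vwce* and *Cubn*, at 0.0850 to 0.111, and *Tfdp2* to *Ccdc181*, *Mapkapk5* and *Pqlc2*, at 0.0894 to 0.0998. *Rrm2* is the one of these 15 that the lists of targets also hold. Those lists are selections, so absence from them does not show that a gene is not a target. Genes of low level differ little on this scale, as *Creb3l3* at 0.518 CPM in mSC and 1.53 in nmSC does.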

How the data were processed

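Smart-Seq2 libraries of full-length polyadenylated RNA from sorted Schwann cells were prepared without molecular identifiers, so the limit set by 3 counts covers counting error only, whereas the 95% intervals of fold changes come from the edgeR fit and include the spread between libraries. After trimming, reads were aligned by the authors with STAR 2.6.1c, counted per gene with featureCounts and deposited as raw counts. The processing notes name GRCm38.p5, whereas the published methods name a human build for this step. Strand and multi-mapping options are not given in the sources used here. Symbols, positions and lengths came from GENCODE M21 (GRCm38), which matched 25664 of 25700 identifiers.

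From the deposited counts, gates were compared with edgeR 4.0.16 in R 4.3.3 (TMM, filterByExpr by gate, quasi-likelihood test in 1 model of 12 libraries, Benjamini-Hochberg adjustment over 18597 genes, threshold 0.05). CPM uses TMM totals, and RPKM library totals. Libraries of 1 number share a subject label, which was taken as the mouse, and the correlation of their deviations from the gate means was -0.225 to 0.246. No 2 libraries were duplicates (chi-square per degree of freedom 4.03 to 95.7). The script was tested on simulated data. All 10 family genes are named, with every gene of lists of up to 10 genes and the 3 most changed of longer ones. Further genes were named where a call was lost, after their values were seen. The genes of the family and the lists were chosen with earlier results of these data known. Alternatives were other scalings, filters, DESeq2 1.42.0, fits of 2 gates, the mouse as a block, other gene lengths and leaving out each library. Some genes of the lists are not reported here.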

Additional observations from a re-analysis of the deposited data

Results flagged for a closer look

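*E2f3* in mSC library 1, at 13.0 CPM, lay apart from the other mSC libraries, which had 8.87 to 9.48 CPM. Its gap to the nearest of them was 0.853 of the range of the gate, above Dixon's 95% critical value for 4 libraries. In all, 30 sets of 4 libraries (10 genes in 3 gates) were examined and this was the 1 that exceeded it, where chance alone exceeds it in about 5% of sets. Without this library, *E2f3* was lower in mSC than in nmSC (edgeR adjusted p = 0.0345).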

How the results depend on the processing

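*E2f1*, *E2f2*, *E2f7* and *E2f8* were lower in mSC than in nmSC in every alternative run and in each of the 8 fits without 1 library. With library size alone, and likewise without the 50 most counted genes in it, 8 of the 10 genes passed, all as lower in mSC. Calls over all genes between mSC and nmSC rose from 7540 to 11864 with library size alone (1443 higher and 10421 lower in mSC). Without the 50 most counted genes they numbered 9717 (2059 higher and 7658 lower). Those between allSC and nmSC rose from 1928 to 2951 with library size alone (744 higher, 2207 lower) and to 2899 with the 2 gates fitted alone. Higher genes made up 90.6% of the allSC against mSC calls with library size alone (50.1% with TMM) and 25.2% of the allSC against nmSC calls (72.7% with TMM). The RPKM order kept 12 of 30 places with the mean transcript and 14 with the longest.

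Of 240 member differences under alternatives other than left-out libraries, 20 changed sign, all at most 0.38 in size under TMM. Between mSC and nmSC these were *E2f5* at -0.30, *Tfdp1* at -0.56 and *Tfdp2* at -0.18 with library size alone, *E2f5* at -0.095 and *Tfdp1* at -0.36 without the 50 most counted genes, and *Tfdp1* at -0.012 with a minimum of 1 CPM in 4 libraries. Between allSC and mSC they were *E2f6* at -0.054 and *Tfdp1* at -0.051 with DESeq2's size factors, *E2f5* at 0.028 with library size alone, *E2f6* at -0.067 and *Tfdp1* at -0.062 with DESeq2's Wald test, *E2f6* at -0.015 and *Tfdp1* at -0.011 without a filter, and *E2f6* at -0.0058 with the mouse as a block. Between allSC and nmSC they were *Tfdp1* at -0.24 and *Tfdp2* at -0.21 with library size alone, *Tfdp1* at -0.14 and *Tfdp2* at -0.11 without the 50 most counted genes, *E2f5* at 0.00088 with DESeq2's Wald test, and *Tfdp1* at -0.015 with the 2 gates alone. Leaving out 1 library, the mSC against nmSC value of *Tfdp1* ran from -0.033 to 0.064. For allSC against mSC, *E2f4* ran from -0.028 to 0.17, *E2f6* from -0.072 to 0.036 and *Tfdp1* from -0.068 to 0.071. For allSC against nmSC, *E2f3* ran from -0.34 to 0.0078, *E2f5* from -0.096 to 0.10, *Tfdp1* from -0.033 to 0.088 and *Tfdp2* from -0.060 to 0.16. The cause of these changes was not tested. With the mouse as a block, the 5 calls of family genes between mSC and nmSC held, and *E2f2* between allSC and mSC was the 1 family call lost (edgeR adjusted p = 0.0508).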
